A study of Mus musculus with 31 samples.

Results

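The acute phase genes described here were 10 genes named by symbol: Saa1, Saa2, Saa3, Orm1, Orm2, Hp, Lcn2, Apcs, Itih4 and Fgl1. All 10 were among the 13677 genes measured in liver, and 8 of the 10 were among the 15987 genes measured in epididymal white adipose tissue (eWAT, the fat pad beside the epididymis). Saa2 and Apcs were not in the eWAT table, from which genes of low CPM (counts scaled to the total of the library) had been left out before deposit.

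The samples came from wild-type C57BL/6 males of the F1 generation, aged 24 weeks. They fall into 3 arms whose diet tag reads HFLFD, HFD or LFD, called HFLF, HF and LF here. All the mice themselves ate the same food, chow until the age of 6 weeks and then LFD for 18 weeks. Because their own food did not differ, HFLF, HF and LF are read here as diets on the father's side, which follows from the study's title but is stated in no label. Liver had 6 HFLF, 5 HF and 4 LF libraries, and eWAT had 6, 6 and 4. Each library is called here by its arm and the number on its label. No label says that the numbers stand for separate litters, so p-values measure only the spread between these samples.

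In the acute phase response, hepatocytes change the set of proteins they secrete into the blood within hours of infection, injury or another inflammatory stimulus. The cytokines interleukin 6 and interleukin 1, made largely by macrophages, reach the hepatocyte, where STAT3, C/EBP and NF-kB factors act on the promoters of these genes. Positive acute phase proteins rise in this response and negative ones, such as albumin and transthyretin, fall.

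The liver libraries held 9225373 to 17268415 counts and the eWAT libraries 9278083 to 27230205. In liver, 10 of 10 hepatocyte markers were measured, with summed levels of 80112 to 122139 CPM in HFLF, 87626 to 119180 CPM in HF and 90300 to 97214 CPM in LF. In eWAT, 7 of 7 adipocyte markers were measured, summing to 30634 to 39891 CPM in HFLF, 28392 to 32661 CPM in HF and 26646 to 36461 CPM in LF. In whole tissue, fewer cells of a type and less RNA per cell cannot be told apart. Across all genes, 0 (0%) passed an adjusted p of 0.05 in any of the 3 comparisons of either tissue (edgeR quasi-likelihood test, Benjamini-Hochberg adjustment). At an unadjusted p under 0.05 there were 748 genes in HFLF against LF, 255 in HFLF against HF and 492 in HF against LF in liver, and 1733, 1486 and 1126 in eWAT.

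The 3 Saa genes lie near each other on chromosome 7 and the 2 Orm genes on chromosome 4. In the GENCODE annotation of GRCm38, Saa3 spans chr7:46711998-46715700 on the minus strand, Saa1 chr7:46740497-46742980 on the minus strand and Saa2 chr7:46751790-46754313 on the plus strand, with 8809 bases between Saa1 and Saa2. Orm1 spans chr4:63344560-63348163 and Orm2 chr4:63362449-63365878, both on the plus strand. There are 24796 bases between Saa3 and Saa1 and 14285 between Orm1 and Orm2. The other 5 members lie apart, Hp at chr8:109575128-109579172 and Fgl1 at chr8:41191434-41215156 (both minus), Lcn2 at chr2:32384633-32388252 (minus), Apcs at chr1:172893961-172895041 (minus) and Itih4 at chr14:30886476-30902353 (plus). The main transcript of a gene is taken here as the first numbered one in GENCODE. Those of nearby members resemble each other, with 94.4% identical bases between Saa1 and Saa2 and 91.0% between Orm1 and Orm2. Of the stretches of 50 bases in the Saa1 transcript, 13.2% also occur in Saa2, and 20.4% of those in Orm1 occur in Orm2. How reads that match both were counted is not given in the sources used here, so the split between the members of each pair is uncertain.

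The promoters of 5 members are shown because each holds a match to the core of the C/EBP motif, one of the factors through which interleukins reach these genes. RefSeq (GRCm38.p6) gave a promoter, from 250 bases before the start of transcription to 50 after it, for 7 of the 10 members. Printed here, on the strand of the gene, are the bases from -250 to -51 before the start, at chr7:46743031-46743230 (minus strand) for Saa1, chr7:46751583-46751782 (plus) for Saa2, chr7:46715727-46715926 (minus) for Saa3, chr4:63362199-63362398 (plus) for Orm2 and chr2:32387790-32387989 (minus) for Lcn2. Capitals mark the match. Positions are counted from the RefSeq start. For Lcn2 that start lies downstream of the GENCODE one, so its printed window falls inside the GENCODE span given above.
Saa1: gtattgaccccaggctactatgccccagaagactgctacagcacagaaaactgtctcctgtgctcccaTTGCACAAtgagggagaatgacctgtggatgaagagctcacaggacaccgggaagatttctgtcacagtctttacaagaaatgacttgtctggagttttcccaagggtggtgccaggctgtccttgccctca
Saa2: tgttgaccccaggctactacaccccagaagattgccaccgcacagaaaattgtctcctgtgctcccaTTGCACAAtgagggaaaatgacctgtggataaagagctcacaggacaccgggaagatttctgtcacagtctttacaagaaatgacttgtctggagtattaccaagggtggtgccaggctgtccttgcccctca
Saa3: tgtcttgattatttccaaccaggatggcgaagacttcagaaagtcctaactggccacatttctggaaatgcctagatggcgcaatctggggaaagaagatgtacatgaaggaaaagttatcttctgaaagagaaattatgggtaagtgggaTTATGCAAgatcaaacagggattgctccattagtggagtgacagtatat
Orm2: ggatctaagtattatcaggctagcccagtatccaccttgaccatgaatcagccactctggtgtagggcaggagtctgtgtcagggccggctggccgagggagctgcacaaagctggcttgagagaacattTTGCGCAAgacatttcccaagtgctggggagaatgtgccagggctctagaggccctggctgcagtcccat
Lcn2: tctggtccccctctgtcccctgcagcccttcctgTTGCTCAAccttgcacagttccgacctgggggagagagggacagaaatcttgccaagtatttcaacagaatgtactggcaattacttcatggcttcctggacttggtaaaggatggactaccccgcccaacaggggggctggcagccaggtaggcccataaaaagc
The motif searched was TTGCNNAA on both strands. The match began at base -182 in Saa1, -183 in Saa2, -120 in Orm2 and -216 in Lcn2 and, on the opposite strand, at -99 in Saa3. It was present in 5 of the 7 promoters, against 10.81% of 32817 promoters of the same length. The Saa1 and Saa2 windows were 96.0% identical over 299 aligned bases of the whole windows and carried the same 8 letters at the match. A STAT motif searched as TTCNNNGAA was found in Apcs and Itih4, 2 of the 7, against 8.29% of all promoters. An NF-kB motif, GGG and TTTCC parted by 2 bases of any kind, was found in 0 of the 7, against 1.63% of all promoters. These are matches to fixed letters in one window, so sites that depart from those letters were not counted. Binding was not measured.

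In liver, all 10 genes had a wider spread between libraries of one arm than the fitted difference between any 2 arms. The same libraries, HFLF 2, HF 2 and LF 6, stood highest for almost every member, and 1 high library in each arm set the mean of the most variable members. No member passed the test in any comparison of arms. The plot of levels by library shows this for each gene.

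**Figure D1:**
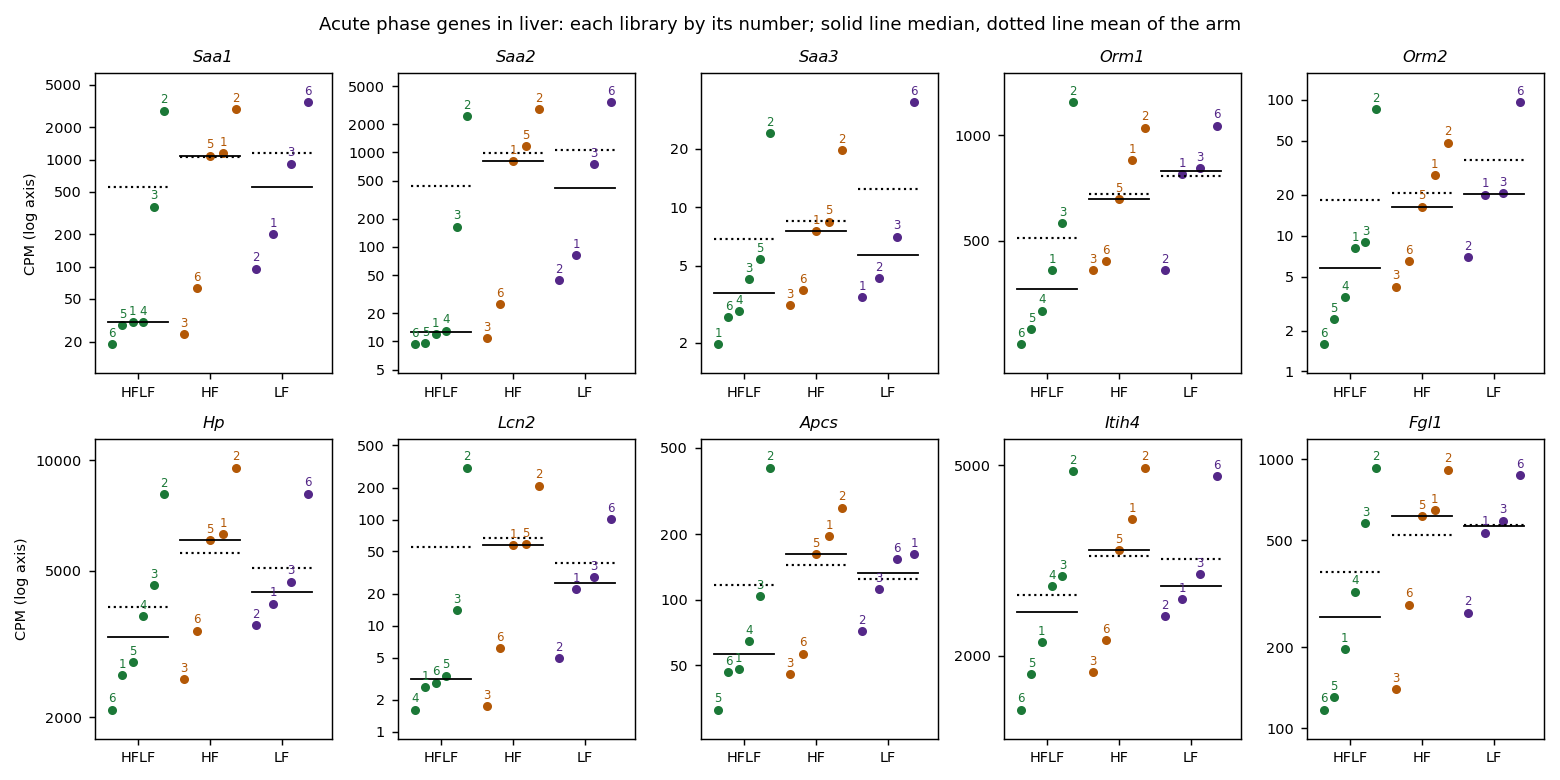
CPM of the 10 acute phase genes in each liver library (log axis), by arm, with the library number above each point; the solid line is the median and the dotted line the mean of the arm. HFLF 2, HF 2 and LF 6 stand at the top of their arms for 9 of the 10 genes, and the arms overlap for all 10.

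Saa1 encodes serum amyloid A1, an apolipoprotein that displaces other proteins from high-density lipoprotein in inflammation. In HFLF livers its level ran from 18.8 CPM in HFLF 6 to 2855 CPM in HFLF 2, with a median of 30.3 CPM. HF livers had 1154, 2938, 23.4, 1088 and 63.5 CPM in libraries 1, 2, 3, 5 and 6, and LF livers had 201, 95.9, 915 and 3421 CPM in libraries 1, 2, 3 and 6. The arms overlapped, and the highest library of each arm (HFLF 2, HF 2 and LF 6) stood above all the others. The highest liver held 182 times as much Saa1 as the lowest.

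Saa2, the near copy of Saa1 with the same role, followed it. It ran from 9.31 CPM in HFLF 6 to 2450 CPM in HFLF 2 in HFLF livers, with a median of 12.5 CPM. HF livers had 810, 2882, 10.9, 1165 and 24.6 CPM in libraries 1, 2, 3, 5 and 6, and LF livers had 81.3, 44.3, 754 and 3399 CPM in libraries 1, 2, 3 and 6. Its 365-fold range over the 15 livers was the widest of the 10 members. The 6 highest libraries were the same 6 for Saa1 and Saa2.

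Saa3, which in mice is also made by macrophages and fat cells, was much lower in liver. HFLF livers had 1.97 to 24.1 CPM with a median of 3.601 CPM. HF livers had 7.50, 19.7, 3.13, 8.42 and 3.73 CPM in libraries 1, 2, 3, 5 and 6, and LF livers had 3.45, 4.32, 7.06 and 34.6 CPM in libraries 1, 2, 3 and 6. Again HFLF 2, HF 2 and LF 6 were the 3 highest livers.

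Orm1 encodes alpha-1 acid glycoprotein, an abundant plasma carrier of drugs and steroids. It varied less, from 253 to 1242 CPM in HFLF livers with a median of 364 CPM. HF livers had 849, 1052, 412, 657 and 437 CPM in libraries 1, 2, 3, 5 and 6, and LF livers had 773, 412, 808 and 1065 CPM in libraries 1, 2, 3 and 6. Orm2, the nearby gene for the same protein family, was lower and more variable. It had 1.58 to 85.7 CPM in HFLF livers, median 5.81 CPM, with 27.9, 48.5, 4.21, 16.4 and 6.51 CPM in HF livers 1, 2, 3, 5 and 6 and 20.03, 6.95, 20.5 and 96.1 CPM in LF livers 1, 2, 3 and 6. Both genes had their 3 highest values in HFLF 2, HF 2 and LF 6.

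Hp encodes haptoglobin, which binds free haemoglobin in plasma. HFLF livers had 2095 to 8096 CPM, median 3296 CPM. HF livers had 6289, 9539.9, 2536, 6059.8 and 3439 CPM in libraries 1, 2, 3, 5 and 6, and LF livers had 4072, 3559, 4671 and 8110.4 CPM in libraries 1, 2, 3 and 6. Hp was the most abundant member per length in liver, at a median of 3027 CPM per kb of its main transcript. Itih4 (937 CPM per kb), Orm1 (724), Fgl1 (477), Saa1 (329), Saa2 (134) and Apcs (107) followed, and Lcn2 (15.4), Orm2 (11.6) and Saa3 (7.78) were the lowest by the same measure.

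Lcn2 encodes lipocalin 2, which withholds iron from bacteria by binding their siderophores. It had 1.61 to 309 CPM in HFLF livers, median 3.14 CPM, where the second highest liver, HFLF 3, had 14.1 CPM. HF livers had 57.7, 208, 1.74, 59.2 and 6.14 CPM in libraries 1, 2, 3, 5 and 6, and LF livers had 22.1, 4.95, 28.7 and 101 CPM in libraries 1, 2, 3 and 6. HFLF 2 alone gave 92.6% of the CPM summed over the 6 HFLF livers.

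Apcs encodes serum amyloid P component, the pentraxin that responds most in mice. HFLF livers had 31.2 to 406 CPM, median 56.3 CPM. HF livers had 197, 266, 45.6, 162 and 56.6 CPM in libraries 1, 2, 3, 5 and 6, and LF livers had 163, 72.0, 112 and 153 CPM in libraries 1, 2, 3 and 6. It was the exception in LF, where LF 1 and not LF 6 was highest.

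Itih4, a member of the heavy chain family of inter-alpha-trypsin inhibitor, had 1541 to 4853 CPM in HFLF livers, median 2464 CPM. It had 3859, 4939, 1849.7, 3327 and 2153 CPM in HF livers 1, 2, 3, 5 and 6, and 2623, 2414, 2962 and 4733 CPM in LF livers 1, 2, 3 and 6. Fgl1, a fibrinogen-like protein secreted by hepatocytes that also binds the T cell receptor LAG3, had 117 to 932 CPM in HFLF livers, median 259.9 CPM. It had 649, 917, 139.9, 615 and 289 CPM in HF livers 1, 2, 3, 5 and 6, and 535, 269, 592 and 877 CPM in LF livers 1, 2, 3 and 6. For both genes the order of the livers was close to that for Saa1.

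The spread within arms set the members apart in size. It was measured as the SD of log2 CPM around the arm means. Saa2 had an SD of 3.29, Saa1 of 2.79, Lcn2 of 2.56 and Orm2 of 1.73, which ranked 2nd, 4th, 5th and 15th of the 13677 liver genes. Saa3 (1.25), Apcs (1.104) and Fgl1 (1.06) also exceeded 1, so that 7 of the 10 did, against 146 genes or 1.07% of the table. Orm1 (0.71), Hp (0.68) and Itih4 (0.55) were lower and still above the median of all genes, 0.24. The plot of spread against level shows the members above most genes of like level.

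**Figure D2:**
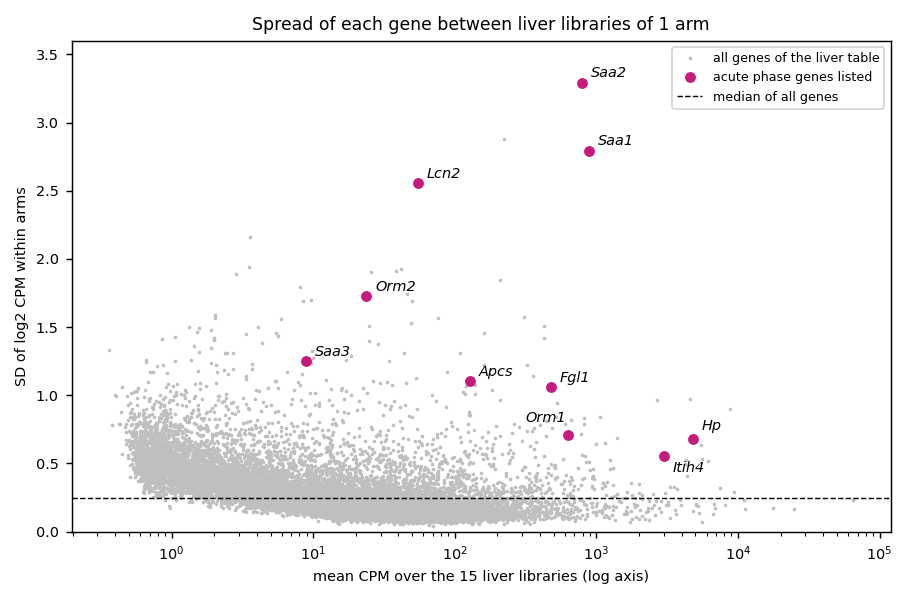
SD of log2 CPM within arms against mean CPM (log axis) for each of the 13677 liver genes (grey) and the 10 acute phase genes (pink); the dashed line is the median of all genes, 0.24. Saa2, Saa1 and Lcn2 lie between 2.56 and 3.29, and Itih4 is the lowest member at 0.55.

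The livers kept nearly the same order from member to member. HFLF 2 and HF 2 were among the 3 highest livers for 10 of 10 members and LF 6 for 9 of 10. HFLF 6 was among the 5 lowest for 10 of 10, and HFLF 1, HFLF 5 and HF 3 for 9 of 10 each. All 45 pairs of members had a Pearson r over 0.7 for log2 CPM over the 15 livers, from 0.75 for Saa3 with Apcs to 0.996 for Saa1 with Saa2, and the range with arm means removed was 0.73 to 0.996.

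Against Saa1, the other 9 members had a Pearson r of 0.88 for Saa3, 0.91 for Apcs, 0.93 for Orm2 and 0.94 to 0.996 for the rest. The permutation p for r was 1e-05, the smallest that 100000 permutations can give, for 8 of these 9 relations and 2e-05 for Saa3 (adjusted 2e-05 or below over the 9, two-sided). Spearman's rho ran from 0.87 for Saa3 to 0.99 for Saa2, with a permutation p of 7e-05 for Saa3, its adjusted value as well. Without the 2 livers farthest from the median of Saa1, r ran from 0.84 for Saa3 to 0.995 for Saa2. Orm1 had 0.92, Hp 0.95, Lcn2 0.96, Itih4 0.91 and Fgl1 0.93 in the same check.

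**Figure D3:**
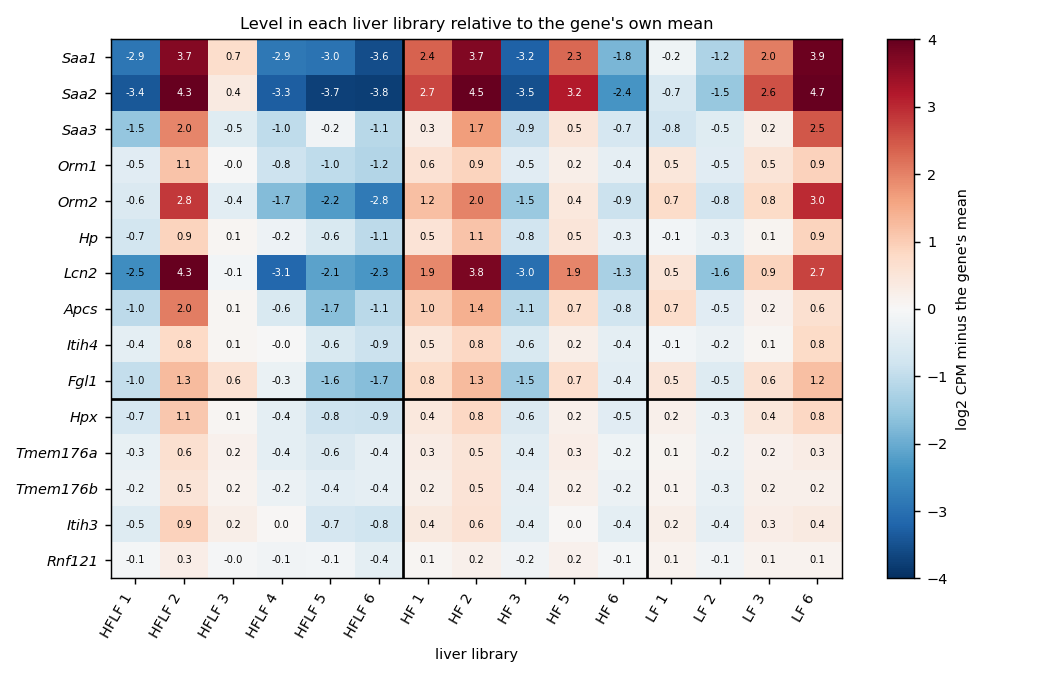
Log2 CPM of each gene in each of the 15 liver libraries minus the gene's own mean (red above, blue below), for the 10 acute phase genes and, under the black line, the 5 other genes most like them; vertical lines part the arms. The columns of HFLF 2, HF 2 and LF 6 are red throughout the members, and those of HFLF 6, HFLF 5, HFLF 1 and HF 3 are blue.

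The 5 liver genes outside the list that were most like it were found by the Pearson r of log2 CPM with the mean of the standardised members, among 9530 genes of at least 5 CPM. Hpx, haemopexin, the plasma carrier of haem, had an r of 0.99 over the 15 livers (rho 0.98, and 0.98 without the 2 farthest livers) and ran from 2742 CPM in HFLF 6 to 10544 CPM in HFLF 2. Tmem176a had 0.96, Tmem176b 0.95, Itih3 0.92 and Rnf121 0.91. Of the 9530 genes, 111 or 1.165% exceeded 0.7. These 5 were picked for their likeness and get no test.

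No member differed between arms beyond the spread of its libraries. By edgeR with Benjamini-Hochberg adjustment, 0 of the 10 passed in each comparison, as did 0% of all genes. At an unadjusted p under 0.05 there were again 0 members, against 5.47% of all genes in HFLF against LF, 1.86% in HFLF against HF and 3.6% in HF against LF. The arms overlapped for 10 of 10 members in each comparison, while 0.943% of all genes had arms that did not overlap in HFLF against LF, 0.19% in HFLF against HF and 1.34% in HF against LF.

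Relative to LF, the HFLF log2 fold change was -1.06 ± 1.64 (SE) for Saa1, -1.27 ± 1.88 for Saa2, -0.84 ± 0.84 for Saa3, -0.58 ± 0.45 for Orm1 and -0.96 ± 1.09 for Orm2. It was -0.35 ± 0.42 for Hp, 0.50 ± 1.59 for Lcn2, -0.10 ± 0.73 for Apcs, -0.25 ± 0.34 for Itih4 and -0.58 ± 0.64 for Fgl1. The adjusted p was 0.902 to 0.992 (edgeR, Benjamini-Hochberg). The SE of Saa1, Saa2 and Lcn2 exceeded 1.5 on this scale, so that a difference of several fold in either direction could not be told from none. The direction was negative for 9 members and positive for 1, Lcn2, which turned to -1.70 with limma voom and -1.75 with a replicate block. The median was -0.58, while all genes split into 6849 higher and 6828 lower with a median of 0.000325. The 10 members share the same high and low livers and so do not count as 10 separate observations.

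Relative to HF, the HFLF values were negative for 10 of 10 members, from -1.14 ± 1.79 for Saa2 to -0.15 ± 1.05 for Orm2, with a median of -0.37, against 6956 genes higher and 6721 lower and a median of 0.00237 for all genes. The adjusted p was 1 for each of the 10 (edgeR, Benjamini-Hochberg). HF against LF gave 4 positive and 6 negative members, from -0.81 ± 1.14 for Orm2 to 0.75 ± 1.65 for Lcn2, with a median of -0.13 against -0.00211 for all genes. This split turned with the method, to 1 positive and 9 negative with limma voom and 0 positive and 10 negative with a replicate block. The adjusted p was 0.9998 for each (edgeR, Benjamini-Hochberg). The 3 comparisons share their libraries in pairs. The plot of fold changes sets each value beside its range when single livers were left out.

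**Figure D4:**
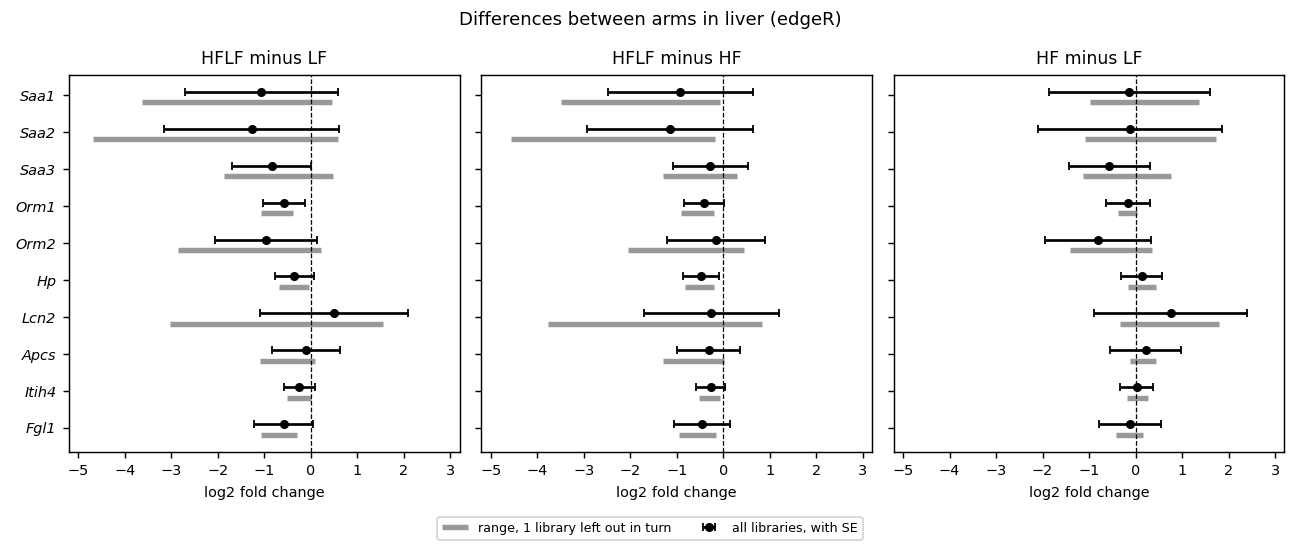
Log2 fold change between arms in liver for each acute phase gene (point, with SE) and the range of the same value when each library was left out in turn (grey bar). The widest grey bars are those of Saa1, Saa2 and Lcn2 (for Saa2 in HFLF against LF, -4.69 to 0.59), and 0 of the 30 values passed the test.

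Single libraries weighed heavily in arm means of 6 members. A library was said to carry a mean where leaving it out moved the arm's mean CPM by over 1.5 times, which held for 15 of the 30 liver means of the members, against 0.826% of the 41031 arm means of all genes. Saa1 averaged 554 ± 1135 CPM in HFLF, 1053 ± 1184 CPM in HF and 1158 ± 1552 CPM in LF (SD, n = 6, 5 and 4), with an SD above the mean in each arm. Without HFLF 2, the HFLF mean of Saa1 was 94.3 CPM, a 5.88-fold move. The same library moved Saa2 10.6-fold (443 CPM with it, 41.7 CPM without), Lcn2 11.3-fold (55.6 and 4.93 CPM), Orm2 3.74-fold, Saa3 1.99-fold and Apcs 1.98-fold. HF 2 moved the HF means of Lcn2 (2.14-fold), Saa2 (1.95-fold), Saa1 (1.81-fold) and Orm2 (1.51-fold). HF 2 was not alone in being high, since HF 1 and HF 5 had 1154 and 1088 CPM of Saa1. LF 6 moved the LF means of Saa2 (3.65-fold), Saa1 (2.87-fold), Saa3 (2.50-fold), Orm2 (2.27-fold) and Lcn2 (2.11-fold). The means of Orm1, Hp, Itih4 and Fgl1 were carried by no single liver.

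The arm differences moved with these libraries. Without HFLF 2, HFLF against LF gave a log2 fold change of -3.62 ± 1.54 for Saa1, -4.69 ± 1.81 for Saa2 and -3.02 ± 1.27 for Lcn2, where Lcn2 had been positive with all libraries. HFLF 2 was the highest HFLF liver for all 10 members, so leaving it out lowers that arm for each. Saa1, Saa2, Saa3, Orm1, Orm2 and Lcn2, 6 of the 10, then had an unadjusted edgeR p under 0.05, as did 7.73% of all genes in the same fit. The smallest was 0.00712, for Orm1 (-1.07 ± 0.34), and its Benjamini-Hochberg adjusted p was 0.475. HFLF against HF moved likewise without HFLF 2, to -3.48 ± 1.495 for Saa1, -4.56 ± 1.77 for Saa2 and -3.78 ± 1.25 for Lcn2. In that fit 7 of the 10 members had an unadjusted edgeR p under 0.05, against 2.65% of all genes, and each had a Benjamini-Hochberg adjusted p of 0.99958. HFLF 2 is shown because of its high values for these same members, which also share one order of livers. The counts of 6 and 7 therefore give no independent evidence of a difference between arms. Without HF 2, the highest HF liver, HFLF against HF instead gave -0.07 ± 1.67 for Saa1, -0.18 ± 1.92 for Saa2 and 0.84 ± 1.58 for Lcn2. Orm2 (0.44), Saa3 (0.30) and Apcs (0.02) then were positive too, while Orm1, Hp, Itih4 and Fgl1 stayed negative. Without LF 6, HFLF against LF gave 0.45 ± 1.84 for Saa1 and 0.59 ± 2.12 for Saa2, positive in both. HF against LF became 1.37 ± 1.96 for Saa1 and 1.72 ± 2.29 for Saa2 without LF 6. No member passed after Benjamini-Hochberg adjustment in any of these edgeR fits.

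Together the 10 members took 0.41% to 2.13% of all counts in HFLF livers, 0.484% to 2.27% in HF livers and 0.709% to 2.25% in LF livers. The highest shares were in HFLF 2, HF 2 and LF 6. Their totals of 12645909, 13683853 and 15396544 counts lay within the range of the other livers.

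Other genes of the response were described from lists of its proteins and its signalling path. Of 24 further positive acute phase genes 23 were measured in liver, and 0 passed in any comparison. In HFLF against LF 8 were higher and 15 lower, with a median of -0.07, and the 3 with the smallest edgeR p were C9 (-0.45 ± 0.21), Cd14 (-0.55 ± 0.36) and Hpx (-0.43 ± 0.40). Their likeness to the members was measured as the r of log2 CPM with the mean of the standardised members after arm means were removed. It exceeded 0.7 for 13 of the 23 (56.5%), against 1.18% of all genes. After Hpx and Itih3 (0.93), the genes Serping1 (0.89), C4b (0.86), Saa4 (0.83), Cp (0.83) and Lbp (0.82) had the highest values, and Hamp, hepcidin, had a negative one (-0.67).

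Of the 9 negative acute phase genes, all measured, 0 passed, with 4 higher and 5 lower in HFLF than in LF. Their r with the members was -0.89 for Ttr, transthyretin, -0.83 for Alb, albumin, and -0.67 for Rbp4, the retinol carrier, but 0.84 for Trf, transferrin. Alb was lowest in HFLF 2, at 46648 CPM, and highest in HFLF 6, at 83076 CPM, the livers with the highest and lowest Fgl1. These list genes other than C9, Cd14 and Hpx were named after their values were seen.

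Along the path from cytokine to promoter, 2 of 6 cytokine genes (Il1a and Il1b), 7 of 7 receptor genes, 10 of 10 transducers, 3 of 4 inhibitors and 8 of 8 liver transcription factors were measured in liver. In each of these lists 0 genes passed in each comparison, and their median log2 fold change in HFLF against LF was -0.36, 0.22, 0.04, -0.21 and 0.08 in that order. Socs3, the feedback inhibitor of interleukin 6 signalling, had an r of 0.71 with the members and Stat3 of 0.67. The cytokine Il1a (0.64) and the transducer Tyk2 (0.62) came next. The receptor Il1rap (-0.67) and the inhibitor Nfkbia (-0.45) had the most negative values of these lists. The receptor Il6ra (-0.27) and the factors Cebpb (-0.18) and Cebpd (-0.27) were negative as well. Of 9 binding partners, 0 passed. Lrp2, which takes up Lcn2 in other organs, had -1.54 ± 0.39 in HFLF and -1.69 ± 0.40 in HF against LF, at edgeR adjusted p-values of 0.639 and 0.9998.

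Cell type markers were read beside this pattern. The sum of the 10 hepatocyte markers, Alb among them, was lowest of its arm in each of the 3 livers high in acute phase genes. It was 80112 CPM in HFLF 2, against 100390 CPM or more in the other HFLF livers. It was 87626 CPM in HF 2 and 90300 CPM in LF 6, against at least 100590 CPM in the other HF livers and at least 94409 CPM in the other LF livers. Alb, at a mean of 65429 CPM, made up most of this sum, and Alb, Ttr and Apoa1 are also on the list of negative acute phase genes. The low sums therefore largely repeat the Alb values and are no measure of hepatocyte number. The 12 macrophage markers, all measured, summed to 240 to 458 CPM in HFLF, 237 to 566 CPM in HF and 241 to 698 CPM in LF. The sum was highest in LF 6 (698 CPM) and HF 2 (566 CPM), 2 of the livers high in acute phase genes, while HFLF 2 had 297 CPM, below the HFLF median of 348 CPM. Of 10 neutrophil markers only S100a9 was measured, at 0 to 2.13 CPM in HFLF, 0.301 to 1.32 CPM in HF and 0.211 to 0.951 CPM in LF. Its highest values were in HFLF 2 and HF 2, and LF 6 was the highest LF liver (0.951 CPM). Its lowest values lay at or under the level of 3 counts, 0.174 to 0.325 CPM in liver. The 5 cholangiocyte markers summed highest in LF 1 (369 CPM), the highest LF liver for Apcs, and within the other arms in HFLF 2 (110.5 CPM) and HF 2 (82.2 CPM), while LF 6 had the least of its arm (42.3 CPM). The 6 endothelial markers summed highest in HFLF 4 (261 CPM) and then LF 6 (237 CPM), and lowest in HFLF 2 (147 CPM). T cell markers were not among the measured liver genes. The part of these cells in the result was not tested.

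In eWAT most members were lower and varied less within arms, and they did not keep one order of libraries. CPM were scaled within each tissue, so levels are set side by side across tissues without a test. The SD of log2 CPM within arms was below its liver value for 7 of the 8 members, from 0.41 for Orm1 to 1.19 for Saa1, while Itih4 had 1.07 in eWAT and 0.55 in liver. Per length, Hp was the highest member there too, at a median of 1285 CPM per kb, before Orm1 (215), Saa3 (19.5), Orm2 (4.25), Lcn2 (4.01), Fgl1 (1.62), Itih4 (0.90) and Saa1 (0.50). Saa3 was the only member whose median CPM per kb was higher in eWAT than in liver. Only 2 of the 28 pairs of members had an r over 0.7 over the 16 libraries, Orm1 with Orm2 (0.86) and Itih4 with Fgl1 (0.83). The plot of eWAT levels shows each library.

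**Figure D5:**
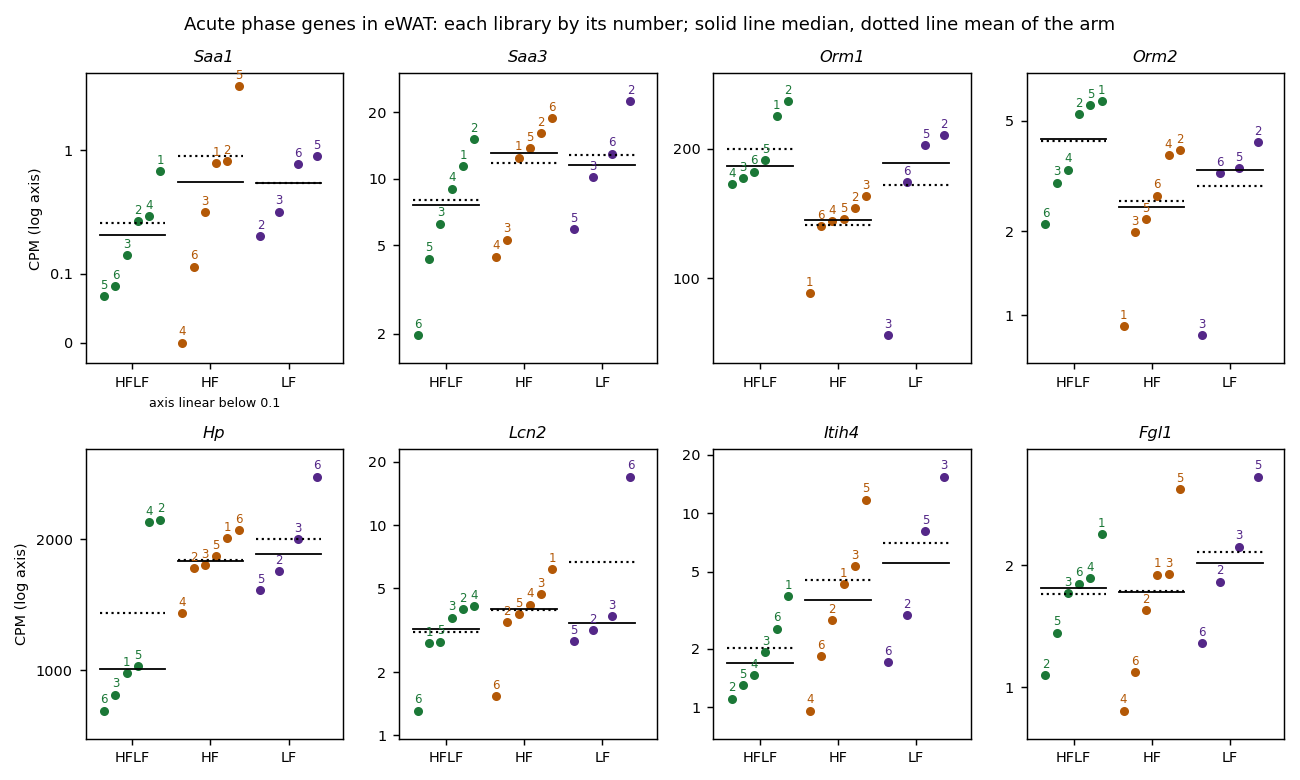
CPM of the 8 acute phase genes measured in eWAT in each library (log axis; the Saa1 axis is linear below 0.1), by arm, with the library number above each point; the solid line is the median and the dotted line the mean of the arm. Orm1 in HFLF (165 to 258 CPM) lies wholly above HF (92.5 to 155 CPM), and LF 6 stands apart for Lcn2 at 17.01 CPM.

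Over both tissues, Orm1 in eWAT, HFLF against HF, was the only case of a member whose 2 arms did not overlap. It had 165 to 258 CPM in HFLF eWAT, median 183 CPM, against 92.5 to 155 CPM in HF eWAT, median 137 CPM, while LF eWAT had 216, 73.8, 204 and 167 CPM in libraries 2, 3, 5 and 6. Such a gap with HFLF higher was seen for 104 of 15987 genes (0.651%), and a gap in either direction for 0.757%. In HFLF against LF and HF against LF 0 of 8 members had such a gap, against 1.23% and 0.926% of all genes. The log2 fold change of HFLF against HF was 0.59 ± 0.21, with an unadjusted edgeR p of 0.0117 and an adjusted p of 0.4402 (Benjamini-Hochberg), so it did not pass. Orm2 had 0.73 ± 0.37 in the same comparison at an adjusted p of 0.555 (edgeR, Benjamini-Hochberg).

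No other member passed in eWAT, where 0% of all genes passed in each comparison. At an unadjusted edgeR p under 0.05, 2 of 8 members were lower in HFLF than in LF, Itih4 (-1.77 ± 0.64) and Lcn2 (-1.10 ± 0.48), against 7.06% of all genes in that direction and 10.8% in either. In HFLF against HF, Saa1 was lower (-1.71 ± 0.79) and Orm1 higher, against 4.43% and 4.86% of all genes in these directions and 9.3% in either. In HF against LF there were 0 of 8, against 7.04% of all genes. The Benjamini-Hochberg adjusted p of these 4 values ran from 0.325 to 0.521.

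Hp had 806 to 2218 CPM in HFLF eWAT, median 1003 CPM, and 1351 to 2099 CPM in HF eWAT, median 1785 CPM. LF eWAT had 1687, 2000.04, 1529.7 and 2783 CPM in libraries 2, 3, 5 and 6. Of the HFLF libraries 4 had 806 to 1022 CPM, and HFLF 4 and HFLF 2 had 2187 and 2218 CPM. The log2 fold change against LF was -0.57 ± 0.28, at an unadjusted edgeR p of 0.0602. Saa3 had 1.97 to 15.1 CPM in HFLF eWAT and 4.46 to 18.8 CPM in HF eWAT, with 22.4, 10.2, 5.93 and 12.99 CPM in LF eWAT 2, 3, 5 and 6. The arms overlapped for both genes.

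Lcn2 had 1.31 to 4.12 CPM in HFLF eWAT, median 3.22 CPM, and 1.54 to 6.16 CPM in HF eWAT, median 3.98 CPM. LF eWAT had 3.17, 3.71, 2.81 and 17.01 CPM in libraries 2, 3, 5 and 6, so that LF 6 alone lay outside the range of the other arms. Saa1 was near the limit of detection in eWAT, at 0.0682 to 0.678 CPM in HFLF, 0 to 3.28 CPM in HF and 0.203 to 0.893 CPM in LF, and 8 of the 16 libraries held 3 counts or fewer. HF 5, with 68 counts, was its highest library.

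Itih4, Fgl1 and Saa1 went with albumin in eWAT. Itih4 had 1.11 to 3.75 CPM in HFLF eWAT, median 1.70 CPM, and 0.961 to 11.7 CPM in HF eWAT, median 3.57 CPM. LF eWAT had 2.97, 15.4, 8.04 and 1.71 CPM in libraries 2, 3, 5 and 6. Its 3 highest libraries, LF 3, HF 5 and LF 5, were also the 3 highest for Alb, at 136, 207 and 172 CPM, against 11.9 to 55.8 CPM in the others. Over the 16 libraries Itih4 had a Pearson r of 0.905 with Alb and a Spearman rho of 0.85. The permutation p was 1e-05 for r, the smallest that the permutations can give, and 9e-05 for rho, or 8e-05 and 0.00072 after adjustment over the 8 members. The r was 0.86 without the 2 libraries farthest from the median of Alb and 0.88 within arms.

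Fgl1 had an r of 0.75 and a rho of 0.73 with Alb (adjusted permutation p 0.00356 and 0.00848), and Saa1 had 0.71 and 0.69 (0.0048 and 0.0113). Without the 2 farthest libraries r was 0.545 and 0.501 for these 2 genes. For Saa3, Orm1, Orm2, Hp and Lcn2 the r with Alb lay between -0.42 and 0.29, with adjusted permutation p-values of 0.207 or more. All 10 hepatocyte markers were measured in eWAT, summing to 2027 to 4427 CPM in HFLF, 1356 to 4524 CPM in HF and 1593 to 6778 CPM in LF. Alb had only 11.9 to 207 CPM, so other listed genes made up most of these sums, which do not stand for liver transcripts alone. HF 5, with the most Alb, summed to 2813 CPM, below HF 1 (4524 CPM) and HFLF 3 (4427 CPM). LF 3, also high in Alb, had the highest sum. Of 7 negative acute phase genes measured in eWAT, Alb among them, 6 were lower in HFLF than in LF. Their median log2 fold change was -2.04, with 0 past the test. Of 21 further positive acute phase genes measured there, 9 were higher and 12 lower, with a median of -0.07 and 0 past the test. The 3 with the smallest edgeR p were Fga (-2.98 ± 0.94), Fgb (-2.955 ± 0.96) and Fgg (-2.74 ± 0.96). Low values of this size were thus not confined to the negative list. The part of liver transcripts in the eWAT values of Itih4, Fgl1 and Saa1 was not tested.

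Single libraries carried 3 of the 24 eWAT means, against 2.36% of the 47961 arm means of all genes. HF 5 carried Saa1 (0.887 CPM with it, 0.407 CPM without), LF 6 carried Lcn2 (6.68 and 3.23 CPM) and LF 3 carried Itih4 (7.02 and 4.24 CPM). Without LF 6, the Lcn2 log2 fold change of HFLF against LF was -0.05 ± 0.36. Without LF 3, that of Itih4 was -1.08 ± 0.64, and without HF 5 that of Saa1 in HFLF against HF was -0.52 ± 0.70.

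The difference between eWAT and liver in each arm effect was tested in one fit of both tissues over 12735 genes. The fit treated all libraries as independent, because no label ties a liver and an eWAT library to the same mouse. Its SEs and p-values rest on that assumption. By edgeR with Benjamini-Hochberg adjustment, 0 of the 8 members and 0% of all genes passed in any of the 3 comparisons. The smallest unadjusted p among the members was 0.0403, for Orm1 in HFLF against HF, where the eWAT difference exceeded the liver one by 0.99 ± 0.46 on the log2 scale (adjusted p 1, Benjamini-Hochberg). Itih4 in HFLF against LF differed by -1.51 ± 0.73 (adjusted p 0.841).

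In 14 cases a liver and an eWAT library carry the same arm and number, though no label says that they came from the same mouse. HFLF 2, with 8096 CPM of Hp in liver, had 2218 CPM in eWAT, the most in its arm, and LF 6, with 8110.4 CPM in liver, had 2783 CPM in eWAT, the most of all. HF 2, the highest liver for Hp, had 1716 CPM in eWAT, below the HF median. Over the 14 pairs the r between tissues was 0.61 for Hp (rho 0.57, and an r of 0.565 without the 2 farthest libraries) and 0.545 for Saa1 (rho 0.62, and an r of 0.46 without the 2 farthest). The permutation p for r was 0.0229 and 0.0381, and 0.153 for each after adjustment over the 8 members, and the adjusted p for rho was 0.141 for each. The other 6 members had an adjusted permutation p of 0.26 or more for r, and Lcn2, with an r of 0.46, was high in eWAT only in LF 6.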

How the data were processed

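Total RNA of liver and eWAT was sequenced. Results rest on the deposited raw counts of reads per gene, from tables that the authors had cleared of genes of low CPM at an unstated minimum. STAR and GRCm38.p6 are named in the submitters' processing notes; nothing used here states the counting tool, the strand setting or the treatment of reads shared by near copies. The authors' deposited RPKM values were read for 1 check and used for no result, because the gene length implied by count and RPKM did not stay the same across libraries. It agreed within 1.1-fold for 0 of 10558 liver and 0 of 12058 eWAT genes with at least 20 counts in every library. Symbols came from GENCODE M21 (13662 liver and 15969 eWAT identifiers matched), promoters from RefSeq.

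From the counts, edgeR 4.0.16 (R 4.3.3) gave TMM-scaled CPM and log2 CPM with a prior count of 2. A robust quasi-likelihood fit with 1 term per arm took all libraries of a tissue (12 residual degrees of freedom for liver, 13 for eWAT). P-values were adjusted by Benjamini-Hochberg over all genes, with a threshold of 0.05, and an SE is the absolute log2 fold change over the square root of F. In liver 3 counts equal 0.174 to 0.325 CPM, and in eWAT 0.1102 to 0.323 CPM, a limit that covers counting error only. Correlations used 100000 two-sided permutations. Scripts were tested on simulated data. Alternatives were RLE size factors, a mean CPM of at least 1, DESeq2 1.42.0, limma voom 3.58.1, fits of only the arms compared, a replicate block and leaving out each library in turn.

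The members, gene lists and tests were chosen with earlier results of these data known. Named were all members, up to 3 genes of each list with the smallest p, and the 5 genes most like the members; the other genes of the lists were named after their values were seen. Permutations cannot take account of that choice.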

Additional observations from a re-analysis of the deposited data

Results flagged for a closer look

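Among the 54 groups of libraries formed by a member, a tissue and an arm, 4 held a library whose gap to its nearest neighbour was too large for its arm by Dixon's test on log2 CPM at the 5% level, and all 4 were in eWAT. By chance about 5% of such groups are flagged. Lcn2 in LF 6 had 17.01 CPM, against 2.81 to 3.71 CPM in LF 2, 3 and 5. Lcn2 in HFLF 6 had 1.311 CPM, against 2.75 to 4.12 CPM in the other HFLF libraries, and HFLF 6 was also the lowest HFLF library for Saa3, Hp and Orm2. Orm1 in HF 1 had 92.5 CPM, against 132 to 155 CPM in the other HF libraries. Orm2 in LF 3 had 0.8481 CPM, against 3.25 to 4.19 CPM in the other LF libraries. The 2 Orm genes were lowest of their arm in the same libraries, HF 1 and LF 3, and share sequence. Of the 30 liver groups 0 held such a library.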

How the results depend on the processing

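No member was called under any alternative run, in any comparison or difference between tissues. DESeq2 gave no adjusted p for 7 of 54 member values within a tissue and 6 of 24 differences between tissues, which are left out of this. Counts of called genes over the whole table, 0 by edgeR, moved. DESeq2 called 7 genes in HFLF against LF and 1 in HF against LF in liver, and 62 in HFLF against LF, 47 in HFLF against HF and 1 in HF against LF in eWAT. Leaving out single libraries gave 0 to 13 genes in eWAT HFLF against LF (13 without LF 5) and 0 elsewhere. Under settings that kept all libraries, 11 member values changed sign and 310 did not. With 1 library left out, 55 changed sign and 501 did not. None of these values passed the test, and the cause was not tested.

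With limma voom, liver HF against LF gave -0.17 for Lcn2, -0.0165 for Apcs and -0.0138 for Itih4, HFLF against LF gave -1.70 for Lcn2, and eWAT HF against LF gave -0.15 for Saa1. With the replicate block, 1 gene was called in liver HFLF against LF, HF against LF gave -0.00855 for Hp, -0.69 for Lcn2, -0.11 for Apcs and -0.0439 for Itih4, HFLF against LF gave -1.75 for Lcn2, and eWAT HFLF against HF gave 0.0314 for Fgl1. No label says that the numbers pair the samples. Same-numbered libraries of different arms had correlations of deviations from -0.105 to 0.384 over 13 liver pairs and from -0.338 to 0.375 over 14 eWAT pairs. Their median was 0.0848 in liver and 0.0902 in eWAT, against -0.0413 and -0.0287 for pairs of other numbers. In liver 5 of 14 and in eWAT 5 of 16 libraries correlated best with their own number. The rate expected by chance was not worked out, so these counts do not show that the numbers pair the samples.

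With each library left out in turn, the log2 fold change crossed 0 for these members. In liver, HFLF against LF, it ran from -1.09 to 0.095 for Apcs, from -3.02 to 1.56 for Lcn2, from -3.62 to 0.45 for Saa1, from -4.69 to 0.59 for Saa2, from -1.87 to 0.48 for Saa3, from -2.87 to 0.21 for Orm2, from -0.50 to 0.0073 for Itih4. In liver, HFLF against HF, it ran from -2.06 to 0.44 for Orm2, from -3.78 to 0.84 for Lcn2, from -1.30 to 0.30 for Saa3, from -1.31 to 0.021 for Apcs. In liver, HF against LF, it ran from -0.19 to 0.27 for Itih4, from -0.16 to 0.43 for Hp, from -0.34 to 1.80 for Lcn2, from -0.12 to 0.44 for Apcs, from -0.99 to 1.37 for Saa1, from -1.09 to 1.72 for Saa2, from -0.43 to 0.16 for Fgl1, from -1.14 to 0.75 for Saa3, from -0.38 to 0.029 for Orm1, from -1.40 to 0.35 for Orm2. In eWAT, HFLF against HF, it ran from -0.19 to 0.21 for Fgl1. In eWAT, HF against LF, it ran from -0.36 to 0.31 for Saa3, from -0.45 to 1.12 for Saa1, from -0.49 to 0.017 for Orm2, from -1.19 to 0.094 for Itih4, from -0.27 to 0.043 for Hp, from -1.01 to 0.30 for Lcn2.

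The 4 to 6 libraries an arm limit what can be seen: SEs of 1.46 to 1.98 for Saa1, Saa2 and Lcn2 in liver leave differences of several fold undetectable. Depth does not limit these genes in liver, where each member exceeded the level of 3 counts in every library. In eWAT Saa1 was at or under it in 8 of 16 libraries.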
